A study of Mus musculus with 12 samples.

Results

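Rag1, Rag2, Dntt, Vpreb1, Vpreb3 and Igll1, which act in antigen receptor assembly and the pre-B cell receptor, were followed across spleens of Il1rn-deficient and wild-type mice at 4 months and 1 month of age. These 6 of 18193 named genes were taken as every probe set to which the platform annotation gives one of these symbols alone, which found 9 of the 45037 probe sets on the array that are not Affymetrix controls. One more probe set carries a member together with another symbol and was left out. Each of 12 Affymetrix arrays held the spleen RNA of 1 BALB/c mouse, 3 per group: ko at 4 months (Il1rn deficient), wt at 4 months (wild type), ko at 1 month and wt at 1 month. The allele, the sex and the housing of the mice are not given in the sources used here. Il1rn encodes the IL-1 receptor antagonist, and BALB/c mice without it develop arthritis.

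RAG1 and RAG2 form the recombinase that cuts DNA beside V, D and J segments in developing B and T cells. Dntt encodes terminal deoxynucleotidyl transferase, which adds bases without a template at the joints. Vpreb1 and Igll1 (lambda5) encode the surrogate light chain, which pairs with a new immunoglobulin heavy chain in the pre-B cell receptor, and Vpreb3 encodes a related protein that binds the heavy chain and is transcribed beyond the precursor stage as well. In mice, B cell production lies in the liver and spleen around birth and settles in the bone marrow. These transcripts, apart from that of Vpreb3, therefore mark rare cells in an adult spleen. In whole spleen RNA, fewer cells of a type and less RNA per cell cannot be told apart.

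The 6 genes lie on 4 chromosomes, and Rag1 with Rag2 (chromosome 2), and Vpreb1 with Igll1 (chromosome 16), are next to each other in the RefSeq gene order, as are Dntt and Blnk on chromosome 19. All 6 matched a RefSeq promoter window of the assembly GRCm38.p6, and the 250 bases before the annotated start are printed below for those 2 pairs, because they hold Rag1, on which the results turn, its partner Rag2, and both genes of the surrogate light chain. Capitals mark matches on either strand to CAGGTG or CAGCTG (E-box letters), TGGGAA (Ikaros letters) or the palindromic EBF1 motif. The windows are chr2:101649533-101649782 on the minus strand for Rag1, chr2:101624462-101624711 on the plus strand for Rag2, chr16:16869256-16869505 on the minus strand for Vpreb1 and chr16:16863986-16864235 on the minus strand for Igll1.
Rag1: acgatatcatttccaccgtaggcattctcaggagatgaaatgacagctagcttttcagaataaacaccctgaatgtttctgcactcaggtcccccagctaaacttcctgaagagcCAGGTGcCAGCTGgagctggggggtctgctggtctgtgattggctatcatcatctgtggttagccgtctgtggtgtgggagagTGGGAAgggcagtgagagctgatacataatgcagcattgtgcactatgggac
Rag2: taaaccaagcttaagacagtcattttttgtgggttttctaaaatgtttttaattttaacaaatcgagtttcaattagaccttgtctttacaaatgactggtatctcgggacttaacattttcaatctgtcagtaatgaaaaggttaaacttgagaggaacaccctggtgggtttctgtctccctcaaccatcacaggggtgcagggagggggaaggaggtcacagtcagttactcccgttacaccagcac
Vpreb1: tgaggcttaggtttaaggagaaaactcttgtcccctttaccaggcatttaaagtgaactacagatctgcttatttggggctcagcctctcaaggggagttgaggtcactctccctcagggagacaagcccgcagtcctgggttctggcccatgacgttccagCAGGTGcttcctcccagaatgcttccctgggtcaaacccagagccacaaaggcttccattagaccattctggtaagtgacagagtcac
Igll1: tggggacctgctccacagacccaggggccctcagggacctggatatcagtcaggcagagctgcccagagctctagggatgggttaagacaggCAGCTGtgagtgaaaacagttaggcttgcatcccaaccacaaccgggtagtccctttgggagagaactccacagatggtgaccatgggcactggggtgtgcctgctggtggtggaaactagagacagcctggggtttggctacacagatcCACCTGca
The Rag1 window holds CAGGTG from base 135 to 130 before the start, CAGCTG from 128 to 123 and TGGGAA from 52 to 47, none of which overlap. Igll1 has CAGCTG at 158 to 153 and CAGGTG, read on the other strand, at 8 to 3, and Vpreb1 has CAGGTG at 88 to 83. The Rag2 window, and those of Dntt and Vpreb3, which are not printed, hold none of these letters. Of all 32851 windows of this length, 17.2% hold CAGGTG, 13.0% CAGCTG, 21.6% TGGGAA and 0.779% the EBF1 motif. A match describes the letters only, and no factor was measured at these sites.

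Signals are the deposited MAS5 values, scaled to a 2% trimmed mean of 500 per array, and the level of one probe set cannot be set against that of another. The median signal of an array was 113 to 147, and 52.1% to 59.2% of probe sets reached a signal of 100. Of 3 Il1rn probe sets, 1451798_at lay at 5.64 to 40.8 in the 6 ko arrays and at 120.5 to 278 in the 6 wt arrays with no overlap. The second lay at 34.6 to 78.3 in ko and 81.2 to 208 in wt, and the third overlapped, at 10.5 to 98.0 in ko and 24.3 to 199.8 in wt. Splenic macrophage markers were present on every array, with summed signals of 12639 to 32609 over 6 of 6 genes, among them Spic of red pulp macrophages at 1715 to 5312. The wt array at 4 months with replicate number 2 carried pancreas transcripts, with a summed signal of 104505 over that list against 1242 to 2510 on the other arrays. Arrays also split by their brightest deposited value, which stayed under 45000 on 6 arrays, called the low set here, and passed it on the 6 of the high set. The low set held every ko array at 1 month and 1 array of each other group.

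Rag1, which encodes the subunit of the recombinase that cuts DNA, was lower in ko than in wt spleens at 4 months and lower in ko spleens at 4 months than at 1 month. The signal of its probe set, 1450680_at, was 20.8, 4.84 and 1.45 in ko spleens at 4 months, against 255, 104 and 40.7 in wt spleens of that age. At 1 month it was 202, 140.3 and 179 in ko spleens and 186, 113 and 96.8 in wt spleens. The 3 ko arrays at 4 months lay below all 9 other arrays, while the groups at 1 month overlapped. Ordered by mean, Rag1 stood at 9.02 ± 10.3 in ko at 4 months, 132 ± 47.7 in wt at 1 month, 133 ± 110 in wt at 4 months and 174 ± 31.0 in ko at 1 month (SD, n = 3 each). The last 3 of these overlapped and did not differ beyond their spread.

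**Figure D1:**
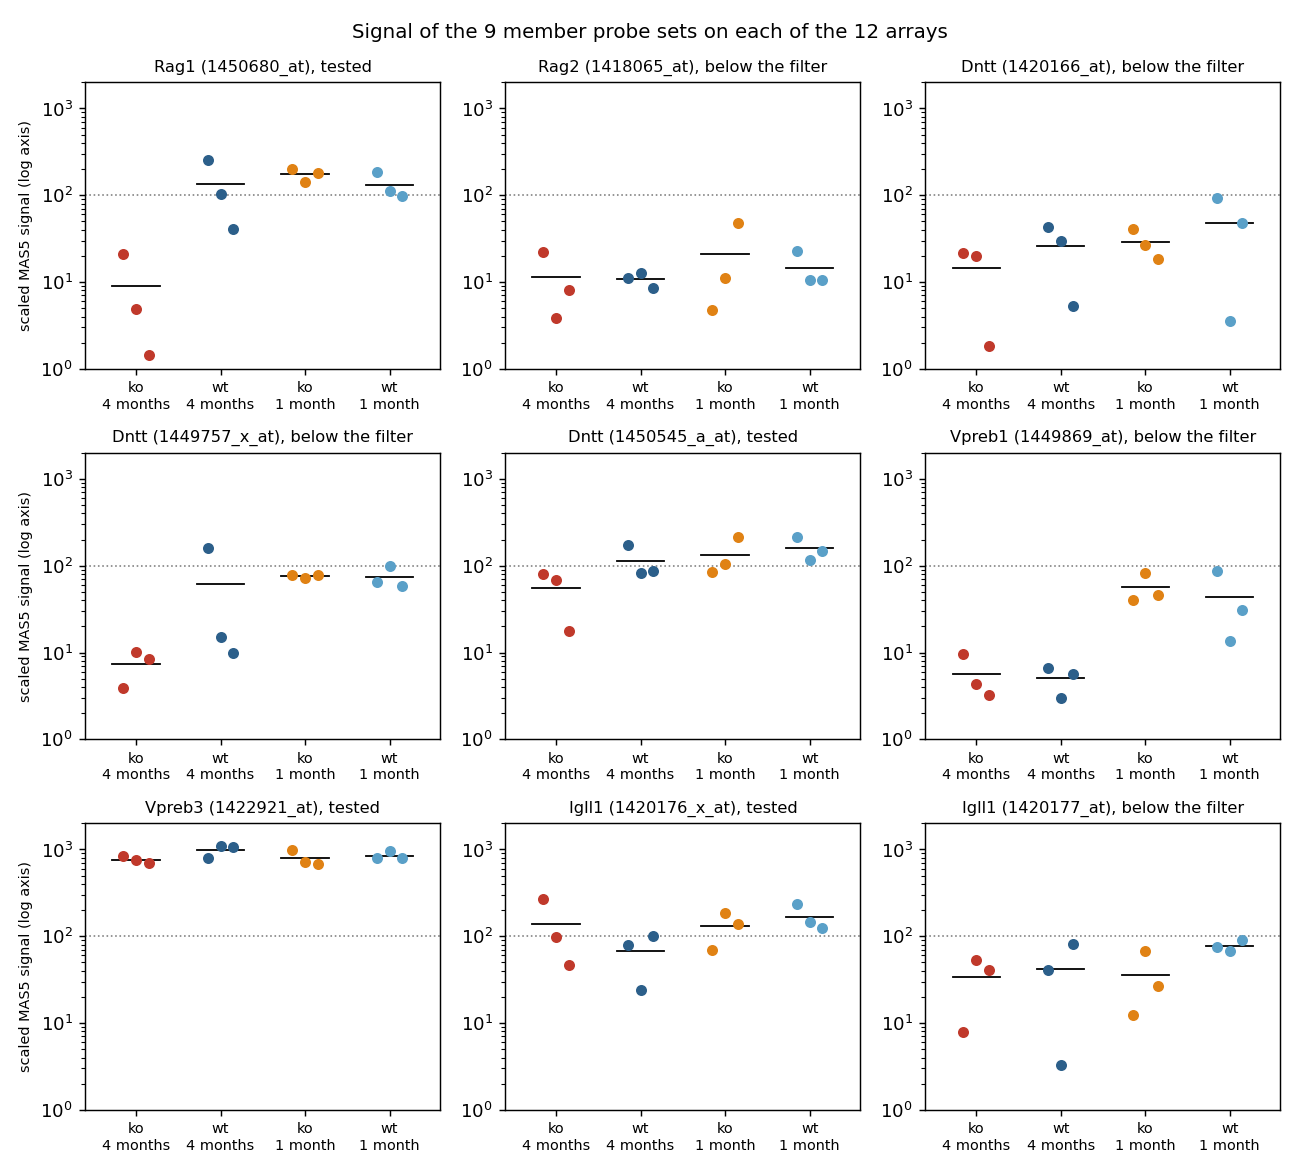
Scaled MAS5 signal (log axis) of the 9 member probe sets, with a point per array, the group mean as a bar, and a dotted line at 100, the level of the filter on low signal. Rag1 in ko at 4 months sits at 1.45 to 20.8, below every other array, while Vpreb3 lies between 685 and 1106 on all 12 arrays.

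Of the 9 probe sets, 4 reached a signal of 100 on at least 3 arrays and were tested: Rag1, 1 of 3 for Dntt, Vpreb3 and 1 of 2 for Igll1. Calls are limma adjusted p under 0.05 over 27041 probe sets, and differences are on the scale of log2(signal + 32). At 4 months, Rag1 was lower in ko by a log2 difference of -1.82 (SE 0.41, 95% interval -2.69 to -0.94, limma adjusted p = 0.0295), and 408 probe sets had a smaller p. Rag1 passed the filter through the other groups alone, and in ko at 4 months it lay under 100 on all 3 arrays, so the direction was tested but the size, like that of Vpreb1 below, cannot be read as a fold change. It was 1 of the 4 tested members called, where 2.30% of all tested probe sets were called and 0.518% were called lower. It was also 1 of 2 tested members whose ko arrays all lay below the wt arrays, as did 11.4% of all tested probe sets. The size depends on the offset since an offset weighs most on low signals: it was -3.94 with an offset of 1 and -1.29 with an offset of 64. The call was lost without the ko arrays numbered 2 (-1.75, limma adjusted p = 0.0931) or 3 (-1.68, limma adjusted p = 0.131) and without the wt array numbered 1 (-1.31, limma adjusted p = 0.127). The call held in 9 of 17 alternatives, and among the others were the fits with no filter (limma adjusted p = 0.0508), without a variance trend (0.0546) and on the 6 arrays compared alone (0.116). Without the wt array that carried pancreas transcripts it held, at -1.84 (limma adjusted p = 0.0445). Within the high set, 2 ko against 2 wt arrays, the difference was -2.23 (limma adjusted p = 0.145). Within the low set, 1 against 1, it was -0.98. In the low set only the 3 ko arrays at 1 month give a spread, so a test there assumes that the lone arrays vary like them.

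At 1 month none of the 4 tested members was called by limma, where 0.444% of all tested probe sets were called. None had an unadjusted p under 0.05, as 4273 of all 27041 tested probe sets did. Rag1 had a log2 difference of 0.35 (SE 0.41, 95% interval -0.52 to 1.23) between ko and wt at that age. Over both ages, where 5.39% of probe sets were called, Rag1 was at -0.73 (SE 0.29, limma adjusted p = 0.149). Again no member was called, and Rag1 alone of the members had an unadjusted p under 0.05, as did 6166 of 27041 tested probe sets. The difference between the genotype effects, 4 months minus 1 month, was -2.17 for Rag1 (SE 0.59), with a limma adjusted p = 0.279, and 182 probe sets had a smaller p. For that contrast 0.0481% of probe sets were called and no member was. Rag1 had an unadjusted p under 0.05 there, as did 2338 of all 27041 tested probe sets.

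Between the ages, Rag1 fell in ko spleens. Its log2 difference, 4 months minus 1 month, was -2.34 in ko (SE 0.41, 95% interval -3.22 to -1.47, limma adjusted p = 0.000991) and -0.17 in wt (SE 0.41, 95% interval -1.05 to 0.70, limma adjusted p = 0.8). This ko call held under all 16 alternatives, with limma adjusted p between 0.000278 and 0.015 and differences between -4.67 (an offset of 1) and -1.70 (an offset of 64). The size in ko rests on the same low signals at 4 months and cannot be read as a fold change. The largest of these p came from the low set alone (-2.47), where 1 array at 4 months stood against 3 at 1 month. Those 3 arrays alone gave the spread within a group there, and the lone array is assumed to vary like them. Rag1 was the 1 tested member called in ko, where 22.9% of probe sets were called and 9.25% called lower. In wt no member was called by limma, where 21.4% of probe sets were and 9.67% were lower. There 1 member, Igll1, had an unadjusted p under 0.05, as did 9312 of all 27041 tested probe sets. The Rag1 comparisons of genotype at 4 months and of age in ko share the same 3 ko arrays at 4 months.

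**Figure D2:**
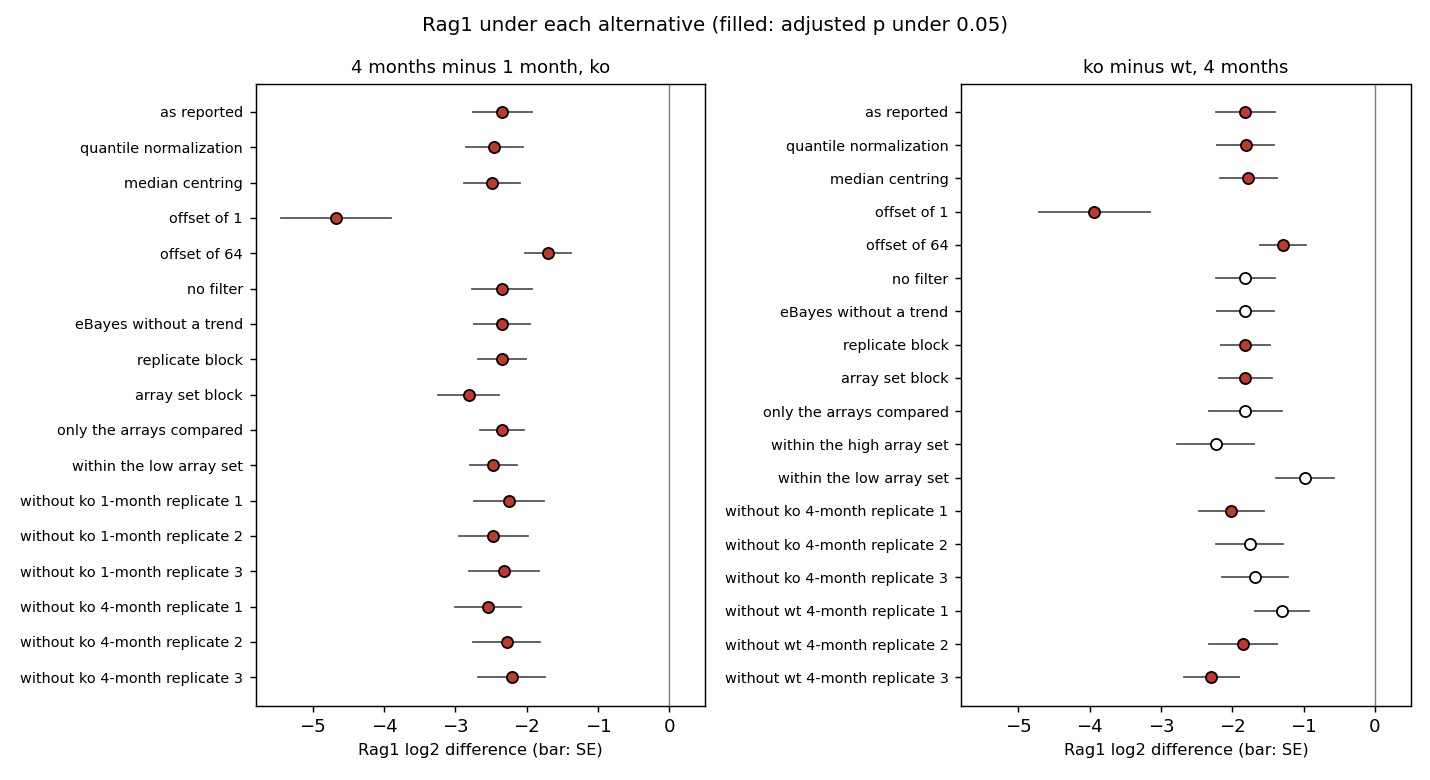
Rag1 log2 difference (bars are SE) for 4 months minus 1 month in ko (left) and ko minus wt at 4 months (right), as reported and under each alternative, filled where limma adjusted p was under 0.05. All differences are below 0, and the comparison of the ages in ko is filled throughout, while the genotype comparison is filled in 9 of 17 alternatives.

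Rag2, the partner of Rag1 in the recombinase, gave no usable signal. Its probe set, 1418065_at, read 22.4, 3.81 and 8.19 in ko and 11.1, 12.7 and 8.60 in wt at 4 months, and 4.78, 11.3 and 47.4 in ko and 22.7, 10.6 and 10.4 in wt at 1 month. The groups overlapped at both ages, and no array reached 100. A change in Rag2 like that of Rag1 was therefore not detectable on this array.

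The 3 Dntt probe sets were low and disagreed in part. On the tested one, 1450545_a_at, signals were 79.9, 68.2 and 17.9 in ko spleens at 4 months, against 175, 81.9 and 86.9 in wt spleens. At 1 month they were 83.8, 105 and 213 in ko spleens and 216, 116 and 147 in wt spleens. The ko arrays at 4 months lay below the wt arrays of that age, if narrowly, as they did for Rag1. The log2 difference was -0.78 (SE 0.38, 95% interval -1.58 to 0.03, limma adjusted p = 0.333) for genotype at 4 months. For 4 months minus 1 month in ko it was -0.93 (SE 0.38, limma adjusted p = 0.0883), where the ages also did not overlap, as in 18.2% of all tested probe sets. With median centring that comparison was called, at -1.08 (limma adjusted p = 0.0455). Median centring also moved the median of all tested probe sets in that contrast from 0.10 to -0.07. It called 3719 of 27105 probe sets lower, against 2502 of 27041 as reported.

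A second Dntt probe set, 1449757_x_at, had signals of 3.93, 10.1 and 8.32 in ko at 4 months, against 162, 15.1 and 9.94 in wt of that age. At 1 month it was at 78.0, 72.2 and 78.1 in ko and at 64.6, 98.8 and 58.5 in wt. The wt array at 4 months that was high here, replicate number 1, is also the highest of its group for Rag1 and for the tested Dntt probe set. The suffix _x marks probes that may bind more than one transcript. The third, 1420166_at, ranged from 1.85 to 93.4, with groups that overlapped in every comparison.

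Vpreb1 (1449869_at), a part of the surrogate light chain, lay below the level of the filter on every array, with lower values at 4 months in both genotypes. It read 9.54, 4.37 and 3.23 in ko spleens at 4 months, against 40.7, 82.8 and 46.2 in ko spleens at 1 month. In wt spleens it was 6.64, 2.97 and 5.72 at 4 months, against 87.1, 13.7 and 31.0 at 1 month. The ages did not overlap in either genotype, and ko overlapped wt at each age. Of tested probe sets, 18.2% in ko and 13.2% in wt were lower at 4 months with no overlap. Vpreb1 was not among those tested, and no such share was taken over probe sets below the filter. Fitted over all 45037 probe sets with no filter, the log2 difference, 4 months minus 1 month, was -1.205 in ko (limma adjusted p = 0.0219) and -0.92 in wt (limma adjusted p = 0.0821). In that fit 3 of the 9 member probe sets were called in ko, Rag1, Vpreb1 and the 1449757_x_at probe set of Dntt (-1.46, limma adjusted p = 0.0449), where 11.2% of all probe sets were called and 4.64% called lower. In wt it called none of the 9, where 10.6% of all probe sets were called and 5.17% called lower. Signals this low carry no detection call here, so their sizes cannot be read as fold changes.

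Igll1, whose product pairs with that of Vpreb1, was measured by a pair of probe sets that did not follow each other. The tested one, 1420176_x_at, was at 268, 97.8 and 47.1 in ko and 79.7, 23.7 and 99.96 in wt at 4 months, and at 69.7, 187 and 140.0 in ko and 238, 144 and 123 in wt at 1 month. The wt arrays at 4 months lay below those at 1 month, as in 13.2% of all tested probe sets, and the other groups overlapped. The log2 difference, 4 months minus 1 month, was -1.06 in wt (SE 0.45, limma adjusted p = 0.108) and -0.11 in ko (SE 0.45, limma adjusted p = 0.897). Between the genotypes it was 0.63 at 4 months (SE 0.45, limma adjusted p = 0.529) and -0.32 at 1 month (SE 0.45, limma adjusted p = 0.766). The other, 1420177_at, stayed between 3.24 and 90.9 and overlapped in every comparison, and Pearson's r between both was 0.34 over the 12 arrays, as a description.

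Vpreb3 (1422921_at) had a signal well above 100 on every array, and no change of it was called. It was at 847, 747 and 692 in ko spleens at 4 months, against 805, 1106 and 1077 in wt spleens. At 1 month it was at 991, 725 and 685 in ko spleens and 789, 960 and 795 in wt spleens. The log2 difference between ko and wt was -0.36 at 4 months (SE 0.17, 95% interval -0.73 to 0.00480, limma adjusted p = 0.323) and -0.09 at 1 month (SE 0.17, 95% interval -0.46 to 0.28, limma adjusted p = 0.831). Between the ages it was -0.06 in ko (SE 0.17, 95% interval -0.42 to 0.31) and 0.22 in wt (SE 0.17, 95% interval -0.15 to 0.59), neither called. The ko and wt arrays overlapped at each age. Across these comparisons the intervals leave out a change of 1 log2 unit in either direction. Vpreb3 did not track Rag1, with a Pearson's r of 0.13 over the 12 arrays, and neither did the Igll1 probe sets (0.11 and -0.0048). The r with Rag1 was 0.31 for Rag2, 0.59 for Vpreb1 and 0.59 to 0.87 for the Dntt probe sets. These values share arrays and low signals and are given as a description.

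**Figure D3:**
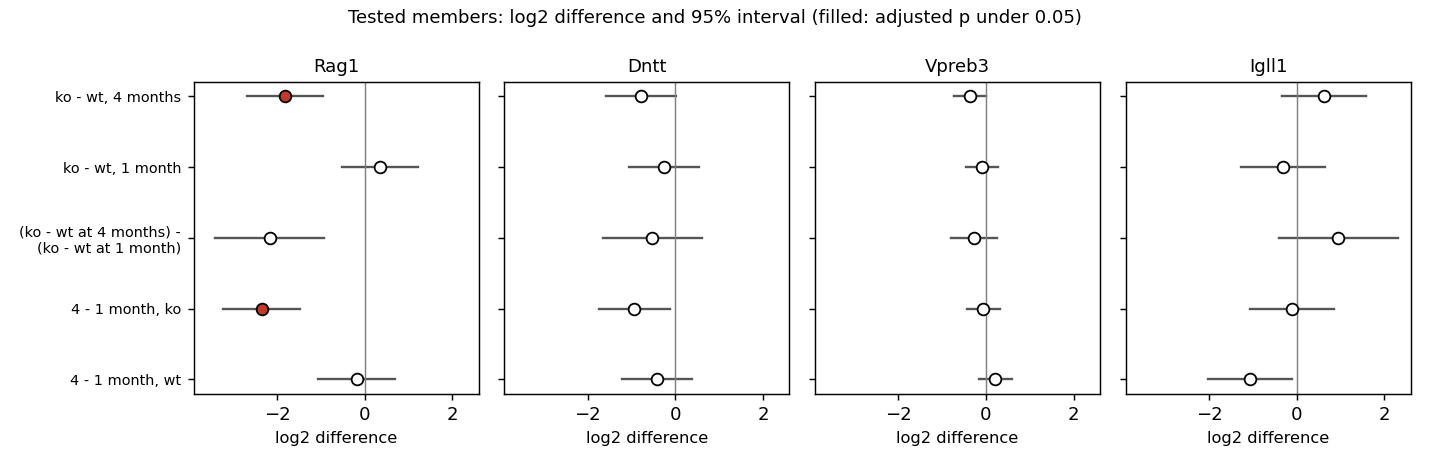
Log2 difference with its 95% interval for the 4 tested probe sets in 5 contrasts, filled where limma adjusted p was under 0.05. Rag1 is filled for ko minus wt at 4 months (-1.82) and for 4 months minus 1 month in ko (-2.34), and no point of Dntt, Vpreb3 or Igll1 is filled.

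Between ko and wt at 4 months, 1 gene of the lists that act with the members was called, of 50 tested, a share near the 2.30% over all tested probe sets. Of all 27041 tested probe sets, 4257 had an unadjusted limma p under 0.05, and the list counts at that level are to be read against this share. Of 12 tested end joining genes, which repair the breaks that RAG makes, limma called 0 for genotype at 4 months, 1 had an unadjusted p under 0.05, and the median log2 difference was -0.14, beside -0.01 over all tested probe sets. The gene at that unadjusted level was Lig4, the ligase of the final joining step, at -0.75 (SE 0.26, limma adjusted p = 0.164). Of 17 regulators of early B cell development, 1 was called lower and none higher, with a median of -0.20. It was Bach2, a repressor of plasma cell fate that also acts in pre-B cells, with a signal of 1838 ± 227 in ko and 3483 ± 966 in wt at 4 months (SD, n = 3 each). Its log2 difference was -0.88 (SE 0.18, limma adjusted p = 0.0176). The Bach2 call was lost without the ko arrays numbered 2 or 3 or the wt array numbered 1 (limma adjusted p = 0.068, 0.103 and 0.0789), the same arrays whose removal ended the Rag1 call. It was also lost without a variance trend (limma adjusted p = 0.0663) and within the high set (0.069) and the low set (0.288, 1 array against 1). Of 17 surface and signalling genes of pro-B and pre-B cells limma called 0, with 3 at an unadjusted p under 0.05 and a median of -0.14, and Akap12 had the smallest p (-0.63, SE 0.17, limma adjusted p = 0.0727). Of 4 tested niche signals 0 were called by limma, and Cxcr4, the receptor that holds precursors near CXCL12, had an unadjusted p under 0.05 (-0.44, SE 0.20, limma adjusted p = 0.3).

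Between the ages, most called genes of these lists went the other way from Rag1. Of the 17 regulators, 9 were higher and 1 was lower at 4 months than at 1 month in ko, and likewise 9 and 1 in wt, with medians of 0.54 in both, beside 0.10 and 0.09 over all tested probe sets. Of all tested probe sets, 13.6% were called higher in ko and 11.8% in wt. On the log2 scale, Ikzf3 (Aiolos) rose by 0.95 in ko (SE 0.15) and by 0.88 in wt (SE 0.15), and Foxo1, an activator of Rag1 and Rag2 transcription, by 0.99 in ko (SE 0.17). Foxo1 was also called higher in wt, though less firmly. With 1 array at a time left out, its wt rise was 0.42 to 0.62 (limma adjusted p = 0.0335 to 0.142). The gene that fell was Myb, a factor of progenitors that include pro-B cells, by 1.40 in ko (SE 0.15) and 0.78 in wt (SE 0.15). Among surface and signalling genes, 6 rose and 2 fell in ko, and 6 rose and 1 fell in wt. Cd79a and Cd79b are among those that rose in each genotype. They are also in the list of mature B cell genes below, so the counts of both lists are not independent. Il7r, the receptor for the growth factor of early B cells, which T cells express as well, rose by 1.20 in ko (SE 0.16) and 0.82 in wt (SE 0.16), and Blnk, the adaptor of pre-B receptor signalling and neighbour of Dntt, by 1.01 (SE 0.16) and 0.62 (SE 0.16). Il7 itself rose by 1.13 in ko (SE 0.18) and 0.83 in wt (SE 0.18), and 3 of 4 niche signals rose in each genotype. End joining genes were mixed, with 1 higher and 1 lower in ko and 1 higher and 2 lower in wt, of 12, which is near the share over all probe sets. Xrcc6, which encodes Ku70, was among those that fell, by 0.74 in ko (SE 0.15) and 0.61 in wt (SE 0.15).

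**Figure D4:**
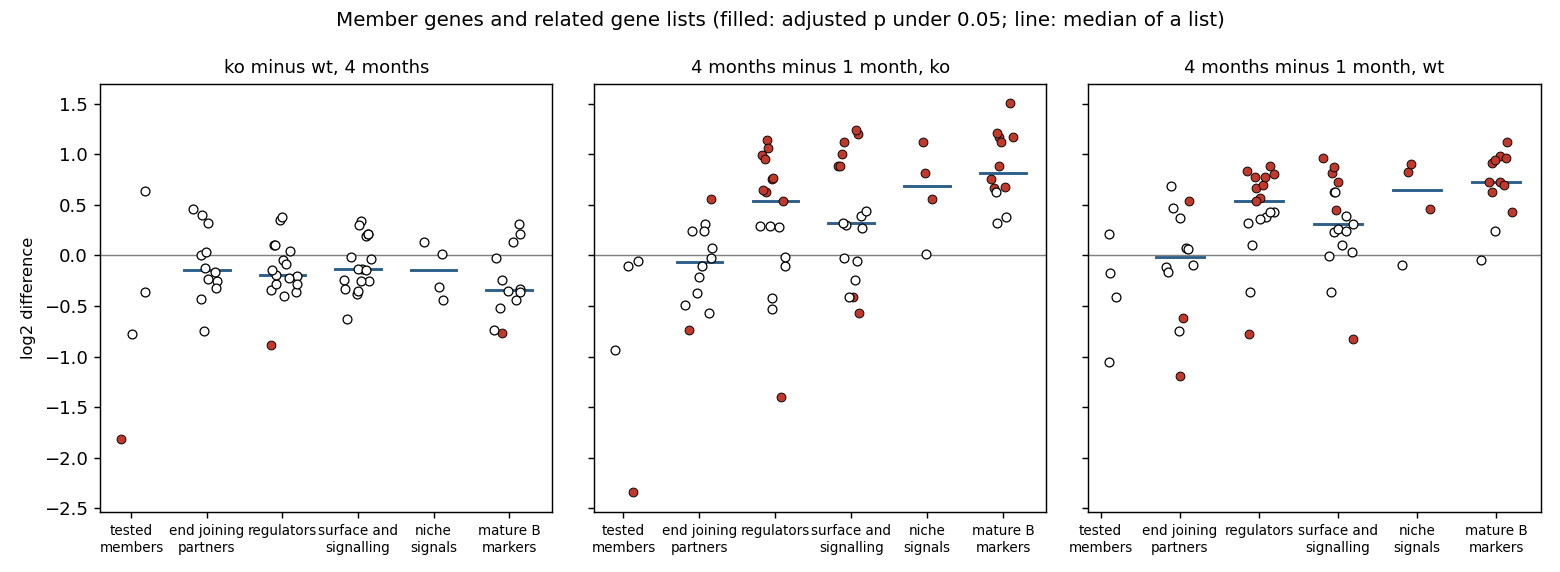
Log2 differences of the 4 tested member probe sets and of genes in 5 related lists, with a point per gene, filled where limma adjusted p was under 0.05, and a line at the median of each list. Cd79a and Cd79b are drawn both with the surface and signalling genes and with the mature B cell markers. Rag1 is the lowest point for ko minus wt at 4 months (left) and for 4 months minus 1 month in ko (middle), and the mature B cell markers have medians of 0.82 in ko and 0.73 in wt between the ages.

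Markers of other cells moved beside Rag1. Of 12 tested mature B cell genes, 9 were called higher at 4 months than at 1 month in ko and 10 in wt, with none lower, where 13.6% and 11.8% of all tested probe sets were called higher. Between ko and wt at 4 months, 1 of the 12 was called lower in ko and 6 had an unadjusted p under 0.05, with a median of -0.34. Of all tested probe sets, 0.518% were called lower there, and 4257 of 27041 had an unadjusted p under 0.05. Over both ages 6 of 12 were called lower in ko, where 2.56% of all tested probe sets were. The summed signal of the mature B cell genes was 84606 to 127472 in ko and 89563 to 130290 in wt at 4 months. At 1 month it was 58664 to 65115 in ko and 72526 to 96439 in wt. Ighm, 1 of these genes, was at 23035 to 30007 on the arrays of the low set and at 50714 to 59670 on those of the high set. The ranges of this sum therefore follow the array sets in part, and every ko array at 1 month was in the low set. Thymocytes also use RAG and Dntt, and 5 of 7 markers were measured, with a summed signal of 3514 to 3853 in ko and 4285 to 4531 in wt at 4 months, and 1921 to 2627 in ko and 2926 to 3450 in wt at 1 month. Ptcra, which defines pre-T cells, reached 100 on no array (10.6 to 99.1), and Cd1d1 and Cd8b1, which mature cells express too, held most of that sum. T cell markers, 8 of 10 measured, summed to 10093 to 12170 in ko and 11641 to 13462 in wt at 4 months, and 5793 to 7509 in ko and 8421 to 9460 in wt at 1 month. Precursor genes of neutrophils summed to 18762 to 26481 in ko and 1930 to 4271 in wt at 4 months, and 61306 to 86936 in ko and 14724 to 21643 in wt at 1 month. Those of erythroid cells summed to 79108 to 91879 in ko and 35284 to 62466 in wt at 4 months, and 110553 to 127689 in ko and 107158 to 139926 in wt at 1 month. At 4 months both precursor sums were higher in ko than in wt with no overlap, the other way from Rag1. The thymocyte sum was lower in ko with no overlap at 4 months and also at 1 month, where Rag1 overlapped. The T cell and mature B cell sums were likewise lower in ko with no overlap at 1 month, and overlapped at 4 months. Cd8b1 counts in both the thymocyte and the T cell sums. At 1 month the neutrophil sum was again higher in ko with no overlap, and the erythroid sums overlapped. Between the ages in ko, both precursor sums were lower at 4 months with no overlap, as Rag1 was, and the thymocyte sum was higher. The same held for all 3 sums between the ages in wt, where Rag1 overlapped. The part of these cell types in the Rag1 result was not tested.

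Among 22703 other tested probe sets with 1 symbol, the patterns most like that of Rag1 over the 12 arrays were those of 1700066M21Rik (Pearson's r = 0.90), Sh2d4a (0.90), Gart (0.88), Dnajc6 (0.88), Purb (0.87), Luc7l3 (0.87), Ppp1r15b (0.86) and E130308A19Rik (0.86). Each was picked as the best of many, and none of the 8 was called between ko and wt at 4 months. Sh2d4a had a signal of 191 ± 32.1 in ko and 322 ± 116 in wt at 4 months, and 506 ± 96.2 in ko and 578 ± 127 in wt at 1 month (SD, n = 3 each). It fell between the ages in both genotypes, by 1.26 in ko (limma adjusted p = 0.00155) and by 0.82 in wt (limma adjusted p = 0.0232). Called lower between the ages in ko and not in wt were 1700066M21Rik (-0.68), Dnajc6 (-1.08), Ppp1r15b (-0.82) and E130308A19Rik (-0.78). Gart, Purb and Luc7l3 were called between the ages in neither genotype. For the mean standardized value of the 6 members, the closest were 1700066M21Rik (0.91), Rcor1 (0.91) and Slc20a1 (0.89), and none of the 8 closest was called between ko and wt at 4 months. Each member had equal weight in that mean, including Rag2 and Vpreb1, whose probe sets reached 100 on no array.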

How the data were processed

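Total RNA from 12 spleens, 1 mouse per array, was hybridised to Affymetrix arrays. The authors deposited a linear signal intensity for each probe set, and MAS5 is named, without a version, per the submitters' processing notes. Probe sets were named from the platform annotation, which gave 1 symbol to 34945, several to 932 and none to 9160. Arrays were scaled to a trimmed mean of 500 (2% cut at each end), which the deposited arrays already had to within rounding. Signals were transformed as log2(signal + 32). Probe sets with a signal of at least 100 on at least 3 arrays (27041) were tested with limma 3.58.1 in R 4.3.3, with 4 group means, lmFit and eBayes with an intensity trend, 8 residual degrees of freedom, 2-sided tests and Benjamini-Hochberg adjustment over all tested probe sets. The test was checked on simulated data. The number of arrays limits the precision.

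The members, gene lists and alternatives were chosen with earlier results of these data known. In lists each gene had 1 probe set, that with the highest mean. The naming rule took all members, Il1rn, list genes called in any contrast or among the 4 smallest p per list at 4 months, and the 8 most similar patterns. After values were seen, list genes whose calls were lost when 1 array was left out were given as counts only, except Bach2, Foxo1 in wt and the naming of Cd79a. Marker lists given as sums were those of mature B cells, T cells, thymocytes, neutrophil and erythroid precursors, macrophages and pancreas. Detection calls and scan data were not used here.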

Additional observations from a re-analysis of the deposited data

How the results depend on the processing

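For the 4 tested members over the 6 contrasts, 414 of the alternative values kept direction and side of the threshold, 8 lost a call, 1 gained one and 15, none of them called, changed sign. At 4 months the number of member probe sets called between ko and wt was 0 instead of 1 with no filter (Rag1 adjusted p = 0.0508), eBayes without a trend (0.0546), only the 6 arrays compared (0.116), within each array set, and with the filter at 200, which leaves Rag1 out. It was 0 to 1 when each array was left out. In ko, 4 months minus 1 month, 2 members were called with median centring, 3 with no filter and 0 with the filter at 200, which leaves out Rag1. Replicate numbers are not stated to pair the mice, and the deviations of same-numbered ko and wt arrays correlated between -0.20 and 0.13. With the replicate block the Rag1 differences were -1.82 (adjusted p = 0.0132) and -2.34 (adjusted p = 0.000432), and the block changed no call of a member. Sign changes were seen for Vpreb3 at 1 month with median centring (0.10), which moved the median of all tested probe sets to 0.14 in that contrast, for Igll1 within the low set (0.011 at 1 month, -0.024 at 4 months, -0.0068 over both ages and -0.035 for the difference between ages) and for Rag1 within the high set in wt (0.15). Leaving out each array, the values ranged from -0.25 to 0.0059 for Vpreb3 at 1 month, -0.10 to 0.38 for Igll1 over both ages, -0.68 to 0.31 for Rag1 between ages in wt, -0.15 to 0.10 for Vpreb3 in ko and -0.63 to 0.33 for Igll1 in ko. The causes were not tested. Over all probe sets, the count called at 4 months was 621 as reported and 84 to 991 over the alternatives, and 6187 and 2470 to 8911 between ages in ko. Those at 1 month ran from 32 to 1590, over both ages from 153 to 2901, for the difference between ages from 1 to 92 and between ages in wt from 1559 to 6527. Signals under 100 limit what can be said of Rag2, Vpreb1 and most probe sets of Dntt and Igll1.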
